A study of Mus musculus with 4 samples.

Results

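The proteasome subunit genes are the 48 of 32285 features whose mouse symbols are Psma, Psmb, Psmc, Psmd, Psme, Psmf or Psmg followed by a number. They were read in single nuclei of the hippocampus from mice of the genotype ArcCreERT2::eYFPflx, an Arc-driven, tamoxifen-inducible Cre joined to a floxed eYFP reporter that both groups carried. The Trained group (2 libraries) had learned active place avoidance, in which a mouse on a turning arena keeps out of a sector with a mild foot shock, and the Untrained group (2 libraries) had not. Tissue was collected 3 days after the retention test in both groups, without triggering recall. The reporter marks neurons in which Arc was active around that test, and nuclei were not separated here by that mark. Ages are not given in the labels. The design text speaks of 2 mice in each group, so a library is taken as 1 mouse and n = 2 in each group. Unless DESeq2 is named, p-values of differences below come from edgeR's quasi-likelihood test over all genes and measure only spread within these 4 samples. For training in nuclei, pool or a class, that is the spread between libraries. For nuclei against pool and for classes against each other, it is the spread left after differences between libraries are taken out. A Poisson p serves only to sort nuclei into classes.

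The 26S proteasome degrades proteins tagged with ubiquitin. Its barrel, the 20S core, is built from outer alpha rings, which gate the entry, and inner beta rings, which hold the proteolytic sites. The 19S cap recognises the ubiquitin chain, removes it, unfolds the substrate with a ring of ATPases and feeds it into the core. Other caps of the Psme family open the core without the 19S cap, and the Psmg proteins and Psmd5, Psmd9 and Psmd10 help the particle to assemble. In neurons the proteasome turns over synaptic proteins, and blocking it disturbs long-lasting synaptic plasticity and memory. A nucleus holds newly made transcripts, while mature mRNA resides mostly in the cytoplasm.

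Counts are UMIs, single captured RNA molecules, given here as CPM, that is scaled to the UMIs summed over the same set of barcodes. Barcodes with at least 600 UMIs are called nuclei, and barcodes under 400 UMIs form the free RNA pool, which shows what RNA floated in the suspension and may also hold RNA of poor nuclei. Trained 1 and 2 held 6019 and 12206 nuclei with medians of 736 and 887 UMIs, and Untrained 1 and 2 held 16916 and 11969 nuclei with medians of 957.5 and 1079 UMIs. The pool had 55744 and 47908 barcodes in Trained 1 and 2 and 51573 and 26378 barcodes in Untrained 1 and 2. Trained 1 is the shallowest library, with 4799202 UMIs in nuclei against 12319771 to 18423764 in the other 3. Mitochondrial UMIs made up 0.301% and 0.315% of nuclear UMIs in Trained and 0.473% and 0.421% in Untrained libraries. The tissue label was checked with marker sets: dentate granule-like and CA3 pyramidal-like nuclei were found, as were 1257 nuclei with thalamic and 1134 with cortical excitatory markers, which a hippocampal label does not cover. As CA1 pyramidal-like, 46 nuclei passed. The CA1 markers summed to 357 to 360 CPM in Trained and 360 to 376 CPM in Untrained nuclei. In the pool they were higher, at 459 to 478 CPM in Trained and 497 to 581 CPM in Untrained libraries. The marker gate described below is set against the pool, so this count does not measure how many CA1 nuclei there were. The 6 choroid plexus markers summed to 1100.0 and 1071 CPM in Trained and 369 and 477 CPM in Untrained nuclei, and none was at 0; the part of this difference between groups in the results on training was not tested.

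The promoters of 3 members, chosen after their values were seen, are shown because they stand at both ends of the comparison of nuclei with free RNA: Psmb5 and Psmb6, which code for proteolytic subunits and were among the most depleted in nuclei, and Psme4, the only member called higher in nuclei. RefSeq promoters on GRCm38.p6 were found for 40 members. Each run goes from 250 bases before the annotated start to 10 bases after it, on the strand of the gene: Psmb5 at chr14:54617986-54618245 (minus strand), Psmb6 at chr11:70525107-70525366 (plus strand) and Psme4 at chr11:30771525-30771784 (plus strand). Capitals mark a match to TGACNNNGC, the core letters of the antioxidant response element read by the Nfe2l1 and Nfe2l2 factors, searched on both strands in the window that runs to 50 bases after the start. The match lies on the gene's own strand in Psmb5 and Psmb6 and on the opposite strand in Psme4.
Psmb5: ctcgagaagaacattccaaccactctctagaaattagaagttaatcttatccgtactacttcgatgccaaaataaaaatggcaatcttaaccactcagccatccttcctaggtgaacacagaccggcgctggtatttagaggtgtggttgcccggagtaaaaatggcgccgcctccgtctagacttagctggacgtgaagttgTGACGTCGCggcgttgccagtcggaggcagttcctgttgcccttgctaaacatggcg
Psmb6: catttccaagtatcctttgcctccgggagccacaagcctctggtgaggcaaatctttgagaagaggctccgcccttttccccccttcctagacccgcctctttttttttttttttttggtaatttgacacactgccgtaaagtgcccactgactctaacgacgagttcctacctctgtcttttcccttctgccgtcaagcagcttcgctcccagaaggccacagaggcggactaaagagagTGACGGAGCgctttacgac
Psme4: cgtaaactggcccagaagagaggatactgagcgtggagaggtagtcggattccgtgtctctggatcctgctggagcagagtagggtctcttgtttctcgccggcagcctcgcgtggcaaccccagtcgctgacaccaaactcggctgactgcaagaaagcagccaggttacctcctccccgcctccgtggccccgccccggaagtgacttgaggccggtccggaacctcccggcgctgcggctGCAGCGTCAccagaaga
The match starts 47 bases before the start site in Psmb5, 9 before it in Psmb6 and 7 before it in Psme4. Of the 43 promoters of members, 6 (14%) held TGACNNNGC, against 12.4% of all 32851 promoters of the same length. All 3 promoters shown are among these 6, so they do not stand for the members at either end. Psmb9, Psmb4, Psmb10 and Psma7, which were more depleted in nuclei than Psmb5, are not among the 6. The CCAAT box was in 14 of the 43 (32.6%), against 37.4% of all promoters. Both shares are near the background, and TGACNNNGC occurs both in members that were low and in the member that was high in nuclei.

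The proteasome genes made up a far smaller share of the UMIs in nuclei than in the free RNA pool. Together the 48 genes made up 2440 and 2457 CPM in nuclei of Trained 1 and 2 and 3117 and 2726 CPM in nuclei of Untrained 1 and 2, against 4641 and 5863 CPM in the Trained pool and 6857 and 6568 CPM in the Untrained pool. The nuclear share was 0.526 and 0.419 times the pool share in the Trained and 0.455 and 0.415 times in the Untrained libraries. With the library as a block, 41 of 46 tested members (89.1%) were lower in nuclei and 1, Psme4, was higher. Of all 17012 genes tested, 39.9% were lower and 37.2% were higher in nuclei, and 77.1% were called in either direction. The median log2 difference (nuclei minus pool) was -1.40 over the members and -0.04 over all genes. In 42 members the nuclear value lay under the pool value in each of the 4 libraries. The 2 members not tested, Psma8 and Psmb11, had 34 and 41 UMIs in all. All 42 calls were kept when any one library was left out.

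**Figure D1:**
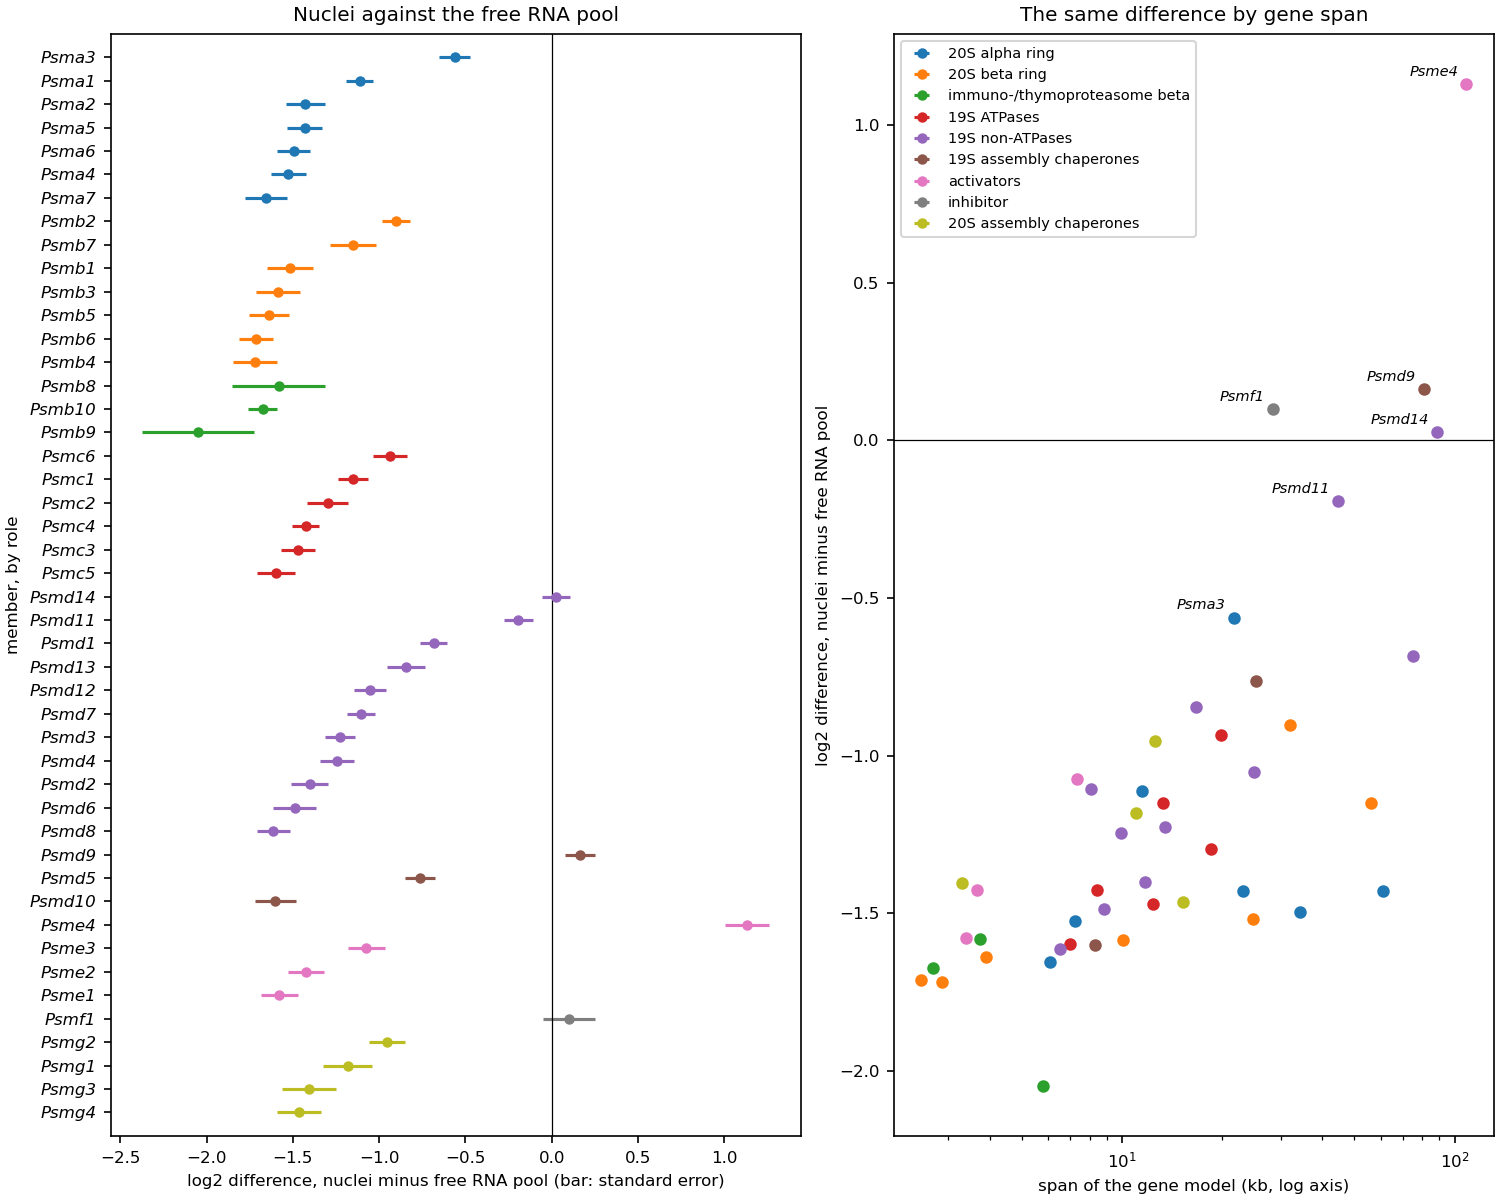
Left, log2 difference (nuclei minus free RNA pool) of the 46 tested members, grouped by role, with standard errors from the edgeR fit over 4 libraries. Right, the same differences against the span of the gene model in kb on a log axis; the members near or above 0 are Psme4, Psmd9, Psmd14, Psmf1 and Psmd11.

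The outer alpha ring was lower in nuclei in all 7 tested genes, with a median log2 difference of -1.43 and edgeR adjusted p from 1.63e-05 to 0.000478. Psma1, an alpha ring subunit, had 48.8 and 57.1 CPM in nuclei of Trained 1 and 2 and 66.4 and 58.3 CPM in nuclei of Untrained 1 and 2. The pool held Psma1 at 98.1 and 127 CPM in the Trained and 143 and 127 CPM in the Untrained libraries, a log2 difference of -1.11 (SE 0.08). For Psma2, another subunit of that ring, nuclei gave 62.3 and 60.1 CPM in the Trained and 86.3 and 66.4 CPM in the Untrained libraries. Pool values of Psma2 were 132 and 182 CPM in Trained and 225 and 200.1 CPM in Untrained libraries, so that nuclei differed by a log2 of -1.43 (SE 0.11). Psma2 overlaps the predicted gene AW209491 on the same strand, so its counts are less certain. Nuclear Psma3, whose N-terminal tail takes part in closing the gate, stood at 123 and 149.8 CPM in Trained and at 152 and 159 CPM in Untrained libraries. With 174 and 215 CPM of Psma3 in the Trained pool and 236 and 235 CPM in the Untrained pool, the log2 difference was -0.56 (SE 0.09). Among alpha genes Psma3 had the difference nearest to 0, and its nuclear and pool values still did not overlap. Psma4, a subunit of the gated ring, had 63.3 and 58.7 CPM in nuclei of Trained 1 and 2 and 89.6 and 67.9 CPM in nuclei of Untrained 1 and 2. The pool held Psma4 at 154 and 192 CPM in the Trained and 239 and 212 CPM in the Untrained libraries, a log2 difference of -1.53 (SE 0.10). For Psma5, a further alpha ring subunit, nuclei gave 49.8 and 52.3 CPM in the Trained and 71.8 and 53.4 CPM in the Untrained libraries. Pool values of Psma5 were 113 and 157 CPM in Trained and 178 and 160.5 CPM in Untrained libraries, so that nuclei differed by a log2 of -1.43 (SE 0.10). Nuclear Psma6, also of the alpha ring, stood at 40.8 and 43.4 CPM in Trained and at 61.4 and 49.1 CPM in Untrained libraries. With 96.7 and 133 CPM of Psma6 in the Trained pool and 165 and 152 CPM in the Untrained pool, the log2 difference was -1.50 (SE 0.10). Psma7, the alpha subunit that the testis-expressed Psma8 replaces, had 129.8 and 110.2 CPM in nuclei of Trained 1 and 2 and 189 and 134 CPM in nuclei of Untrained 1 and 2. The pool held Psma7 at 334 and 396 CPM in the Trained and 553 and 474 CPM in the Untrained libraries, a log2 difference of -1.66 (SE 0.12). Psma7 was the alpha gene with the largest depletion. Psma8 was seen at 0.417 and 0.568 CPM in Trained and 0.380 and 0.339 CPM in Untrained nuclei, and at 0.309 and 0.357 CPM in the Trained and 0.249 and 0.122 CPM in the Untrained pool. With so few UMIs it was not tested. For each of the 7 tested alpha genes, all 4 nuclear values lay below all 4 pool values.

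The constitutive beta ring showed the deepest depletion among the larger roles, a median log2 difference of -1.59 over 7 genes, all called (edgeR adjusted p from 1.63e-05 to 9.44e-05). For Psmb5, which carries the chymotrypsin-like site, nuclei gave 80.4 and 79.8 CPM in the Trained and 118 and 90.8 CPM in the Untrained libraries. Pool values of Psmb5 were 203 and 289 CPM in Trained and 339.5 and 313 CPM in Untrained libraries, so that nuclei differed by a log2 of -1.64 (SE 0.12). Nuclear Psmb6, which carries the caspase-like site, stood at 54.4 and 59.1 CPM in Trained and at 96.8 and 74.9 CPM in Untrained libraries. With 164 and 224 CPM of Psmb6 in the Trained pool and 273 and 260.5 CPM in the Untrained pool, the log2 difference was -1.71 (SE 0.10). Psmb6 in nuclei of both Trained libraries lay below both Untrained ones. Psmb7, which carries the trypsin-like site, had 63.3 and 59.01 CPM in nuclei of Trained 1 and 2 and 74.96 and 61.9 CPM in nuclei of Untrained 1 and 2. The pool held Psmb7 at 100.1 and 149 CPM in the Trained and 168 and 160.2 CPM in the Untrained libraries, a log2 difference of -1.15 (SE 0.13). Psmb7 was thus nearer to the pool than the other proteolytic beta genes. For Psmb1, a beta subunit without a proteolytic site, nuclei gave 80.8 and 72.2 CPM in the Trained and 109 and 84.3 CPM in the Untrained libraries. Pool values of Psmb1 were 168 and 249 CPM in Trained and 303 and 271 CPM in Untrained libraries, so that nuclei differed by a log2 of -1.52 (SE 0.13). Nuclear Psmb2, likewise non-catalytic, stood at 73.8 and 87.6 CPM in Trained and at 95.3 and 89.3 CPM in Untrained libraries. With 132 and 160.1 CPM of Psmb2 in the Trained pool and 182 and 170.0 CPM in the Untrained pool, the log2 difference was -0.90 (SE 0.08). Psmb3, a structural beta subunit, had 100.2 and 80.4 CPM in nuclei of Trained 1 and 2 and 123 and 83.4 CPM in nuclei of Untrained 1 and 2. The pool held Psmb3 at 233 and 294 CPM in the Trained and 336 and 283 CPM in the Untrained libraries, a log2 difference of -1.59 (SE 0.13). Trained and Untrained values of Psmb3 overlapped in nuclei and in the pool. For Psmb4, another structural beta subunit, nuclei gave 85.8 and 81.4 CPM in the Trained and 122 and 88.9 CPM in the Untrained libraries. Pool values of Psmb4 were 224 and 309.8 CPM in Trained and 357 and 347 CPM in Untrained libraries, so that nuclei differed by a log2 of -1.72 (SE 0.13). Psmb4 had the lowest log2 difference of the constitutive core. All 4 nuclear values lay below all 4 pool values in every one of the 7 genes.

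The interferon-inducible beta subunits, which replace the constitutive proteolytic ones in the immunoproteasome, were scarce, and the 3 tested were lower in nuclei. Nuclear Psmb8, the inducible counterpart of Psmb5, stood at 0.208 and 1.30 CPM in Trained and at 1.19 and 1.35 CPM in Untrained libraries. With 2.16 and 3.66 CPM of Psmb8 in the Trained pool and 3.49 and 3.18 CPM in the Untrained pool, the log2 difference was -1.58 (SE 0.27). In Trained 1 the nuclear value was 1 UMI. Psmb9, the counterpart of Psmb6, had 0.417 and 0.649 CPM in nuclei of Trained 1 and 2 and 0.271 and 0.339 CPM in nuclei of Untrained 1 and 2. The pool held Psmb9 at 1.08 and 2.32 CPM in the Trained and 1.49 and 1.59 CPM in the Untrained libraries, a log2 difference of -2.05 (SE 0.32). Psmb9 rested on 97 UMIs in all 4 libraries, and it was lower than the pool in each. For Psmb10, the counterpart of Psmb7, nuclei gave 12.7 and 17.2 CPM in the Trained and 26.3 and 19.8 CPM in the Untrained libraries. Pool values of Psmb10 were 41.5 and 54.5 CPM in Trained and 75.8 and 67.6 CPM in Untrained libraries, so that nuclei differed by a log2 of -1.67 (SE 0.08). Psmb10 carried most of the UMIs of these inducible genes, and its nuclear values lay below its pool values throughout. Psmb11, the beta subunit of the thymoproteasome of thymic cortical epithelium, was seen at 0.625 and 0.406 CPM in Trained and 0.380 and 0.203 CPM in Untrained nuclei. Its pool values were 0.387 and 0.446 CPM in Trained and 0.498 and 0.611 CPM in Untrained libraries, and it was not tested.

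All 6 ATPases of the 19S cap, the ring that unfolds substrates, were lower in nuclei, with a median log2 difference of -1.36 (edgeR adjusted p from 1.63e-05 to 5.91e-05). Nuclear Psmc1, a ring ATPase, stood at 55.2 and 60.1 CPM in Trained and at 67.9 and 57.4 CPM in Untrained libraries. With 114 and 130.1 CPM of Psmc1 in the Trained pool and 146 and 141 CPM in the Untrained pool, the log2 difference was -1.15 (SE 0.09). Psmc2, another ATPase of the cap, had 46.05 and 41.6 CPM in nuclei of Trained 1 and 2 and 52.5 and 54.9 CPM in nuclei of Untrained 1 and 2. The pool held Psmc2 at 85.4 and 118 CPM in the Trained and 125 and 152 CPM in the Untrained libraries, a log2 difference of -1.30 (SE 0.12). For Psmc3, whose C terminus docks into the core and opens its gate, nuclei gave 83.8 and 78.8 CPM in the Trained and 119 and 101 CPM in the Untrained libraries. Pool values of Psmc3 were 205 and 244 CPM in Trained and 305 and 297 CPM in Untrained libraries, so that nuclei differed by a log2 of -1.47 (SE 0.10). Nuclear Psmc4, an ATPase of the same ring, stood at 26.3 and 33.9 CPM in Trained and at 44.02 and 41.05 CPM in Untrained libraries. With 70.3 and 90.6 CPM of Psmc4 in the Trained pool and 113 and 114 CPM in the Untrained pool, the log2 difference was -1.43 (SE 0.08). Psmc5, the ATPase that CaMKII phosphorylates in neurons, had 57.3 and 62.9 CPM in nuclei of Trained 1 and 2 and 98.03 and 86.3 CPM in nuclei of Untrained 1 and 2. The pool held Psmc5 at 147 and 225 CPM in the Trained and 266 and 280.2 CPM in the Untrained libraries, a log2 difference of -1.60 (SE 0.11). Psmc5 had the largest depletion of the 6, and its nuclear values in both Trained libraries lay below both Untrained values. For Psmc6, also of the ATPase ring, nuclei gave 61.9 and 60.9 CPM in the Trained and 78.8 and 74.6 CPM in the Untrained libraries. Pool values of Psmc6 were 98.04 and 131 CPM in Trained and 154 and 144 CPM in Untrained libraries, so that nuclei differed by a log2 of -0.94 (SE 0.10). Psmc6 was the ATPase nearest to its pool level.

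The 11 non-ATPase subunits of the cap were the most varied role: 9 were lower in nuclei and 2, Psmd14 and Psmd11, were not called. Nuclear Psmd14, the metalloprotease that cuts the ubiquitin chain off the substrate, stood at 120.4 and 119.6 CPM in Trained and at 119 and 123 CPM in Untrained libraries. With 113 and 115 CPM of Psmd14 in the Trained pool and 116 and 127 CPM in the Untrained pool, the log2 difference was 0.03 (SE 0.08). Nuclear and pool values of Psmd14 overlapped, and the edgeR adjusted p was 0.772. Psmd11, a lid subunit, had 61.9 and 70.9 CPM in nuclei of Trained 1 and 2 and 67.1 and 70.9 CPM in nuclei of Untrained 1 and 2. The pool held Psmd11 at 73.6 and 72.1 CPM in the Trained and 76.9 and 85.3 CPM in the Untrained libraries, a log2 difference of -0.19 (SE 0.08). Here the 4 nuclear values lay just below the 4 pool values, and the edgeR adjusted p was 0.0593. For Psmd7, the partner of Psmd14 in the lid, nuclei gave 52.9 and 65.6 CPM in the Trained and 85.1 and 77.02 CPM in the Untrained libraries. Pool values of Psmd7 were 112 and 141 CPM in Trained and 169.5 and 178 CPM in Untrained libraries, so that nuclei differed by a log2 of -1.11 (SE 0.08). Nuclear Psmd4, a receptor for ubiquitin chains, stood at 88.8 and 85.96 CPM in Trained and at 122 and 118 CPM in Untrained libraries. With 179 and 212 CPM of Psmd4 in the Trained pool and 294 and 298 CPM in the Untrained pool, the log2 difference was -1.24 (SE 0.10). Psmd1, a scaffold of the base, had 107 and 101 CPM in nuclei of Trained 1 and 2 and 113 and 111 CPM in nuclei of Untrained 1 and 2. The pool held Psmd1 at 171 and 171 CPM in the Trained and 170.0 and 177 CPM in the Untrained libraries, a log2 difference of -0.68 (SE 0.08). Psmd1 was called, at a smaller depletion than the other scaffold. For Psmd2, that other scaffold, which docks ubiquitin-like domains, nuclei gave 64.4 and 59.01 CPM in the Trained and 71.6 and 57.8 CPM in the Untrained libraries. Pool values of Psmd2 were 139 and 179 CPM in Trained and 176 and 169 CPM in Untrained libraries, so that nuclei differed by a log2 of -1.40 (SE 0.11).

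Nuclear Psmd3, a lid subunit, stood at 25.4 and 27.7 CPM in Trained and at 33.6 and 30.1 CPM in Untrained libraries. With 55.1 and 69.7 CPM of Psmd3 in the Trained pool and 69.9 and 76.9 CPM in the Untrained pool, the log2 difference was -1.23 (SE 0.09). Psmd6, a lid subunit, had 42.5 and 40.7 CPM in nuclei of Trained 1 and 2 and 53.2 and 44.6 CPM in nuclei of Untrained 1 and 2. The pool held Psmd6 at 89.5 and 132 CPM in the Trained and 139 and 147 CPM in the Untrained libraries, a log2 difference of -1.49 (SE 0.12). For Psmd8, a lid subunit too, nuclei gave 25.4 and 27.3 CPM in the Trained and 39.8 and 32.1 CPM in the Untrained libraries. Pool values of Psmd8 were 67.7 and 99.5 CPM in Trained and 111 and 98.8 CPM in Untrained libraries, so that nuclei differed by a log2 of -1.61 (SE 0.10). Nuclear Psmd12, which belongs to the lid as well, stood at 41.5 and 54.1 CPM in Trained and at 59.3 and 57.98 CPM in Untrained libraries. With 75.7 and 106 CPM of Psmd12 in the Trained pool and 124 and 136 CPM in the Untrained pool, the log2 difference was -1.05 (SE 0.10). Psmd12 overlaps the predicted gene Gm11722 on the same strand and is less certain for that reason. Psmd13, likewise of the lid, had 40.01 and 40.1 CPM in nuclei of Trained 1 and 2 and 42.8 and 44.5 CPM in nuclei of Untrained 1 and 2. The pool held Psmd13 at 55.5 and 77.04 CPM in the Trained and 81.3 and 86.7 CPM in the Untrained libraries, a log2 difference of -0.85 (SE 0.11). Adjusted p of the 9 called genes ran from 1.63e-05 to 0.000173 in edgeR, and in each of them all nuclear values lay below all pool values.

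The caps and helpers outside the standard particle included the single member that was higher in nuclei. For Psme4, the nuclear activator PA200, nuclei gave 196 and 201 CPM in the Trained and 179 and 197 CPM in the Untrained libraries. Pool values of Psme4 were 129.8 and 89.3 CPM in Trained and 65.8 and 77.6 CPM in Untrained libraries, so that nuclei differed by a log2 of 1.13 (SE 0.13). Every nuclear value of Psme4 lay above every pool value (edgeR adjusted p 8.92e-05). In the pool Trained 1 stood highest, and the excess in nuclei was smallest in that library. Nuclear Psme1, the alpha chain of the PA28 activator, stood at 17.1 and 15.5 CPM in Trained and at 24.5 and 17.4 CPM in Untrained libraries. With 43.4 and 56.8 CPM of Psme1 in the Trained pool and 64.4 and 53.9 CPM in the Untrained pool, the log2 difference was -1.58 (SE 0.11). Psme2, the beta chain of PA28, had 6.67 and 7.31 CPM in nuclei of Trained 1 and 2 and 9.23 and 7.72 CPM in nuclei of Untrained 1 and 2. The pool held Psme2 at 17.2 and 19.3 CPM in the Trained and 25.2 and 20.5 CPM in the Untrained libraries, a log2 difference of -1.43 (SE 0.10). The features also list Psme2b, a near-identical copy, so reads may be split between Psme2 and Psme2b. For Psme3, the PA28 gamma activator, a nuclear protein, nuclei gave 25.00 and 15.99 CPM in the Trained and 22.96 and 18.8 CPM in the Untrained libraries. Pool values of Psme3 were 43.1 and 39.8 CPM in Trained and 47.8 and 39.5 CPM in Untrained libraries, so that nuclei differed by a log2 of -1.07 (SE 0.11). Although the Psme3 and Psme4 proteins both reside in the nucleus, their transcripts lay on opposite sides of 0. Nuclear Psmf1, which codes for the inhibitor PI31, stood at 18.1 and 16.5 CPM in Trained and at 14.8 and 14.8 CPM in Untrained libraries. With 14.2 and 11.96 CPM of Psmf1 in the Trained pool and 16.6 and 16.3 CPM in the Untrained pool, the log2 difference was 0.10 (SE 0.15). Psmf1 was not called (edgeR adjusted p 0.558), and its sign differed between Trained and Untrained libraries.

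Assembly helpers were lower in nuclei in 6 of 7 genes. Psmd5, a chaperone of the 19S base, had 24.8 and 24.9 CPM in nuclei of Trained 1 and 2 and 23.2 and 23.98 CPM in nuclei of Untrained 1 and 2. The pool held Psmd5 at 42.1 and 39.5 CPM in the Trained and 40.4 and 41.2 CPM in the Untrained libraries, a log2 difference of -0.76 (SE 0.08). For Psmd9, also a base chaperone, nuclei gave 23.5 and 25.9 CPM in the Trained and 25.5 and 29.6 CPM in the Untrained libraries. Pool values of Psmd9 were 20.8 and 23.8 CPM in Trained and 23.7 and 24.1 CPM in Untrained libraries, so that nuclei differed by a log2 of 0.16 (SE 0.09). Psmd9 leaned to nuclei in each of the 4 libraries but was not called (edgeR adjusted p 0.123). Nuclear Psmd10, the base chaperone known as gankyrin, stood at 5.83 and 5.68 CPM in Trained and at 8.90 and 8.53 CPM in Untrained libraries. With 16.01 and 21.2 CPM of Psmd10 in the Trained pool and 26.2 and 22.9 CPM in the Untrained pool, the log2 difference was -1.60 (SE 0.12). Psmg1, which pairs with Psmg2 to line up the alpha ring, had 8.75 and 7.55 CPM in nuclei of Trained 1 and 2 and 10.1 and 8.81 CPM in nuclei of Untrained 1 and 2. The pool held Psmg1 at 13.995 and 20.4 CPM in the Trained and 22.8 and 21.4 CPM in the Untrained libraries, a log2 difference of -1.18 (SE 0.14). For Psmg2, the partner of Psmg1, nuclei gave 15.6 and 15.8 CPM in the Trained and 17.1 and 13.95 CPM in the Untrained libraries. Pool values of Psmg2 were 26.1 and 30.8 CPM in Trained and 31.8 and 31.05 CPM in Untrained libraries, so that nuclei differed by a log2 of -0.95 (SE 0.11). Nuclear Psmg3, which pairs with Psmg4 in ring assembly, stood at 8.54 and 5.84 CPM in Trained and at 9.23 and 6.23 CPM in Untrained libraries. With 15.2 and 17.4 CPM of Psmg3 in the Trained pool and 23.5 and 20.3 CPM in the Untrained pool, the log2 difference was -1.41 (SE 0.16). Psmg4, the partner of Psmg3, had 17.9 and 13.9 CPM in nuclei of Trained 1 and 2 and 20.8 and 15.04 CPM in nuclei of Untrained 1 and 2. The pool held Psmg4 at 36.3 and 41.4 CPM in the Trained and 55.4 and 49.99 CPM in the Untrained libraries, a log2 difference of -1.46 (SE 0.13). The 4 Psmg genes had a median log2 difference of -1.29, and no nuclear value of these 4 reached a pool value.

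Most of the exceptions were long genes. The 5 members closest to or above 0 were Psme4, Psmd9, Psmd14, Psmf1 and Psmd11, whose gene models span 108.6, 80.7, 88.7, 28.4 and 44.6 kb. Neither the comparison with span nor the cut at 40 kb was planned beforehand. The 7 members longer than 40 kb (Psmd11, Psmb7, Psma2, Psmd1, Psmd9, Psmd14 and Psme4) had a median log2 difference of -0.19, ranging from -1.43 to 1.13. The 39 members up to 40 kb had a median of -1.43, ranging from -2.05 to 0.10. Psma2 (61.0 kb) and Psmb7 (56.1 kb) were long and still low. Over the 46 members the Spearman correlation of span with the difference was 0.742 and Pearson's r on log10 span was 0.730. Over 16996 tested genes with a span the values were 0.437 and 0.378, so the same direction held over the genes at large. These are correlations across genes of the same libraries, which are not independent replicates. In all tested genes over 40 kb the median difference was 0.54 (5917 genes) and in shorter ones it was -0.46 (11079 genes).

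Other housekeeping lists moved the same way. The cytosolic ribosomal proteins were lower in nuclei in 79 of 79 tested genes, with a median log2 difference of -1.72, and the nuclear-encoded oxidative phosphorylation genes in 86 of 89, with a median of -1.67. Of 22 proteasome partner genes that are not Psm genes, 17 were lower, 3 were higher and 2 were not called. Pomp, the maturation factor of the core, had a log2 difference of -1.73 (SE 0.11), and Sem1, the smallest lid protein, had -1.50 (SE 0.09). Vcp, the segregase that hands substrates to the proteasome, had -1.32 (SE 0.11), and Zfand5, which binds ubiquitin and the cap, had -1.22 (SE 0.12). Usp14, the deubiquitinase of the cap, had -0.51 (SE 0.08). Nfe2l1, the factor that raises proteasome transcription, had -1.32 (SE 0.13). The 3 higher partners were Ube3c, a ubiquitin ligase of the cap (0.77, SE 0.09), Ecpas, a scaffold bound to the particle (0.64, SE 0.09), and Ddi2, the protease that activates Nfe2l1 (0.31, SE 0.07). Antigen processing genes, the usual companions of the immunoproteasome, were lower in 5 and higher in 1 of 9 tested genes (median -0.80).

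The change with depth was gradual rather than a step between barcode sets. In Trained 1 the summed members fell to 2095 CPM in barcodes of 1500 to 1999 UMIs, against 5429 CPM in barcodes under 200 UMIs, and in Trained 2 they were at 1752 CPM in barcodes of at least 3000 UMIs, against 6209 CPM under 200. Untrained 1 went down to 2169 CPM at 3000 UMIs or more, against 7009 CPM at 200 to 299, and Untrained 2 to 1891 CPM, against 6681 CPM. Thinned to 600 UMIs each, nuclei held on average 1.49 and 1.55 proteasome UMIs in Trained and 2.01 and 1.76 in Untrained libraries. At that depth 78.1% and 78.2% of Trained and 85.1% and 81.7% of Untrained nuclei held at least 1 such UMI (85.5% and 90.3% of Trained and 95.2% and 95.0% of Untrained nuclei before thinning). The variance of the thinned count over its mean was 1.01 and 1.04 in Trained and 1.12 and 1.08 in Untrained libraries, close to the 1 of pure counting noise. Since the pool holds these RNAs at a higher share, such a UMI does not show that the nucleus made it.

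**Figure D2:**
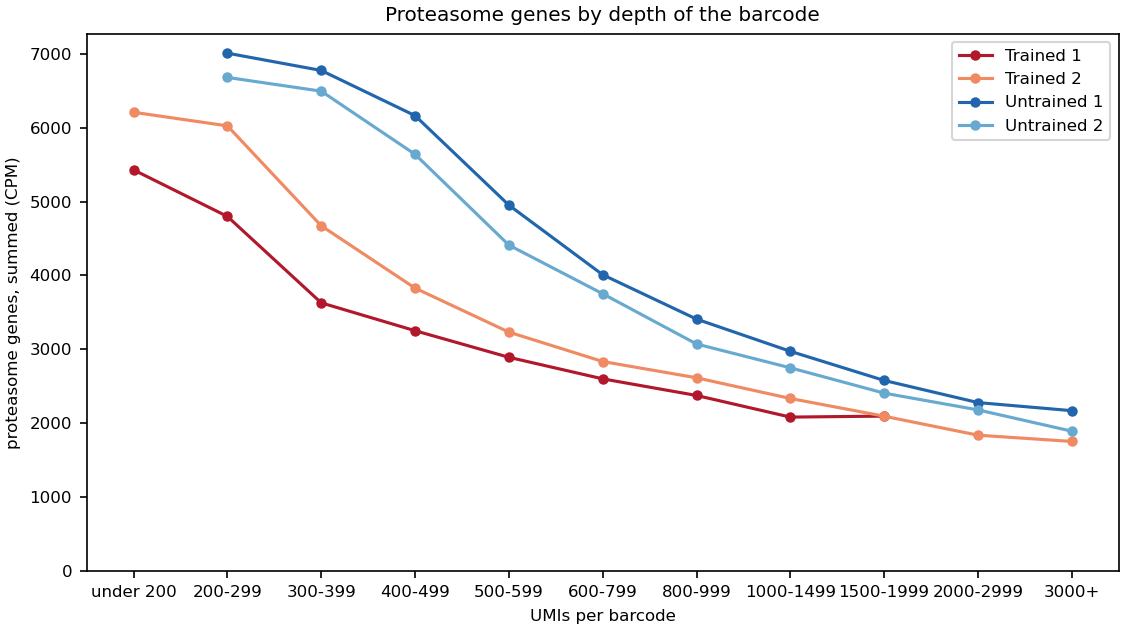
Summed CPM of the 48 proteasome genes (y axis) in barcodes binned by their UMIs (x axis), 1 line per library. The lines fall towards deeper barcodes, apart from the last step of Trained 1, and the Untrained lines lie above the Trained ones in every bin from 200 UMIs on.

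The study's own question was what differs between trained and untrained mice while the memory is kept. No proteasome gene was called in nuclei: of 45 tested members, 0 passed an adjusted p of 0.05, and the count with DESeq2 was 0 too. Before adjustment 12 members had a p under 0.05, as did 1094 of all 17455 genes. Without Untrained 2, 1 member was called, where 189 of all genes were. The background was equally empty, with 0 of 17455 genes (0%) called. Most members leaned the same way, with 40 of 45 below 0 and a median log2 difference (Trained minus Untrained) of -0.23, against 0.00 over all genes. Without Untrained 1 that median was -0.11, with 34 of 45 below 0, and with each other library left out it lay between -0.32 and -0.28. Both Trained libraries lay below both Untrained ones in 30 of 48 members (62.5%) and above them in 5 (10.4%); over 20509 genes with at least 10 UMIs these shares were 21.8% and 14.4%. These 48 genes share the same 4 libraries, so their common lean counts as 1 observation of the libraries and not as many.

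By role the nuclear medians were -0.35 for the ATPases, -0.30 for the constitutive beta ring, -0.29 for the alpha ring and -0.20 for the non-ATPases. They were -0.14 for the activators, -0.15 for the Psmg chaperones and -0.11 for the base chaperones. The largest value below 0 was that of Psmc5, the ATPase phosphorylated by CaMKII, at -0.58 (SE 0.13, edgeR adjusted p 0.792). Its nuclear values, 57.3 and 62.9 CPM in Trained and 98.0 and 86.3 CPM in Untrained libraries, did not overlap. Psmd10 stood at -0.57 (SE 0.21, edgeR adjusted p 0.792) and Psmb6 at -0.56 (SE 0.15, edgeR adjusted p 0.792). The immunoproteasome gene Psmb10 had -0.55 (SE 0.20, edgeR adjusted p 0.792), and the ubiquitin receptor Psmd4 had -0.42 (SE 0.12, edgeR adjusted p 0.792). On the other side of 0, Psmf1 had 0.25 (SE 0.16, edgeR adjusted p 0.826), from 18.1 and 16.5 CPM in Trained and 14.8 and 14.8 CPM in Untrained nuclei. Psme4 had 0.11 (SE 0.13, edgeR adjusted p 0.907) and its groups overlapped. None of these differences passed the test.

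**Figure D3:**
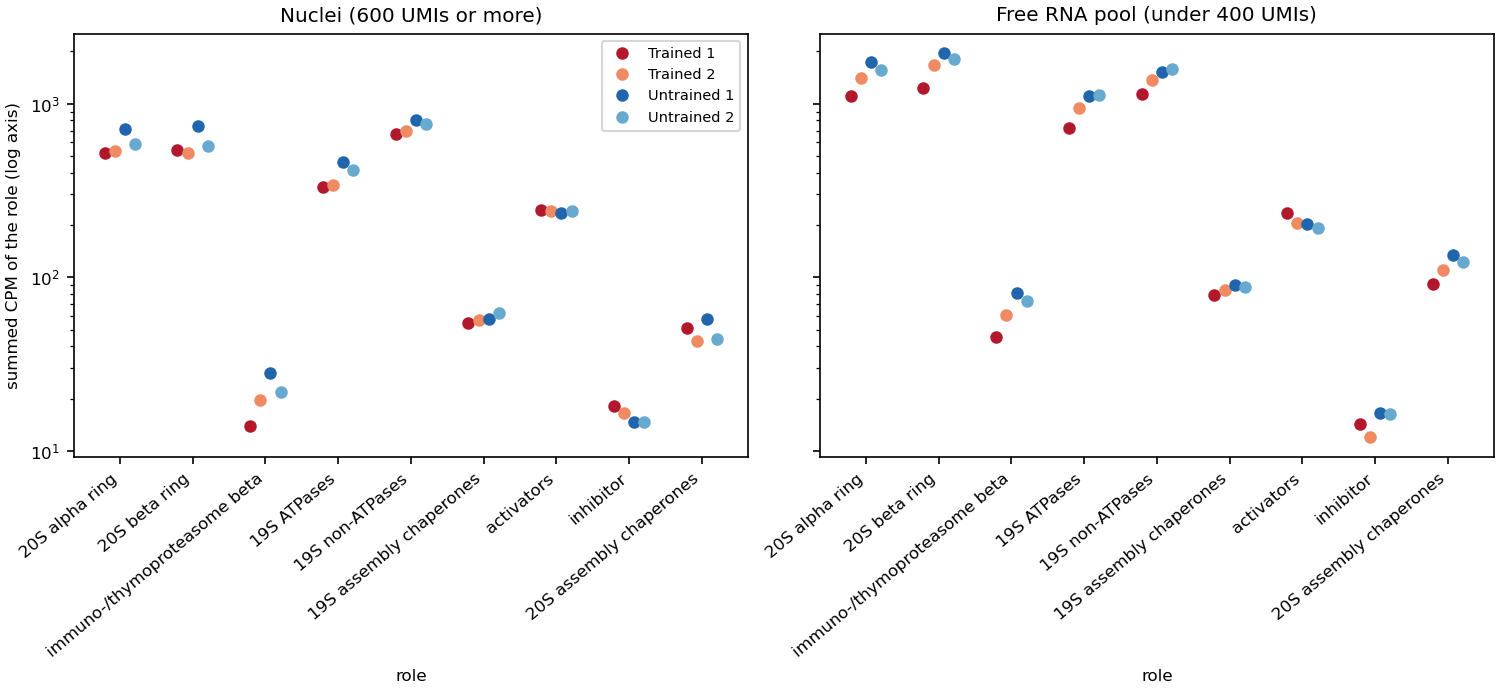
Summed CPM by role (log y axis) in nuclei (left) and in the free RNA pool (right), 1 point per library with the Trained libraries left of the Untrained ones. The alpha ring, the beta ring, the ATPases and the non-ATPases sit lower in both Trained libraries than in both Untrained ones, in nuclei and in the pool.

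The free RNA pool of the same libraries leaned the same way. It sums RNA of all cell types, so a different mix of cells and less RNA per cell cannot be told apart in it. The pools were also unlike sets of barcodes. Their lowest barcode held 101 UMIs for Trained 1, 174 for Trained 2, 201 for Untrained 1 and 251 for Untrained 2. Median depth was 216 and 222 UMIs for Trained pools, but 312 and 306 UMIs for Untrained pools. Mitochondrial UMIs made up 0.690% of the Trained 1 pool and 1.18% to 1.33% of the other pools. The part of these unlike pools in the training results here and in the interaction below was not tested. None of 46 tested members was called by edgeR (0% of 16457 genes were called), and 1 was called with DESeq2, which called 270 of all genes. Before adjustment 18 members had a p under 0.05, as did 3120 of all genes. The median log2 difference was -0.44 over the members and 0.03 over all genes, and 44 of 46 members were below 0. The member median was -0.22 without Trained 1 and -0.70 without Trained 2. Both Trained pools lay below both Untrained pools in 35 of 48 members (72.9%) and above them in 2 (4.17%), against 19.1% and 33.7% of 19457 genes with at least 10 UMIs. The ATPases had a pool median of -0.51, the Psmg chaperones -0.49, the beta ring -0.48, the alpha ring -0.47 and the non-ATPases -0.41. Psmc5 had -0.63 (SE 0.24, edgeR adjusted p 0.235) and Psmb10 -0.67 (SE 0.19, edgeR adjusted p 0.196). Psmf1, which leaned up in nuclei, had -0.41 (SE 0.19, edgeR adjusted p 0.275) in the pool. Psme4 was the clear exception, at 0.53 (SE 0.20, edgeR adjusted p 0.231), with 129.8 and 89.3 CPM in the Trained and 65.8 and 77.6 CPM in the Untrained pool. Without Trained 2 the pool test called 1 member higher and 34 lower, with 4974 of all genes called, and without any other library it called 0.

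**Figure D4:**
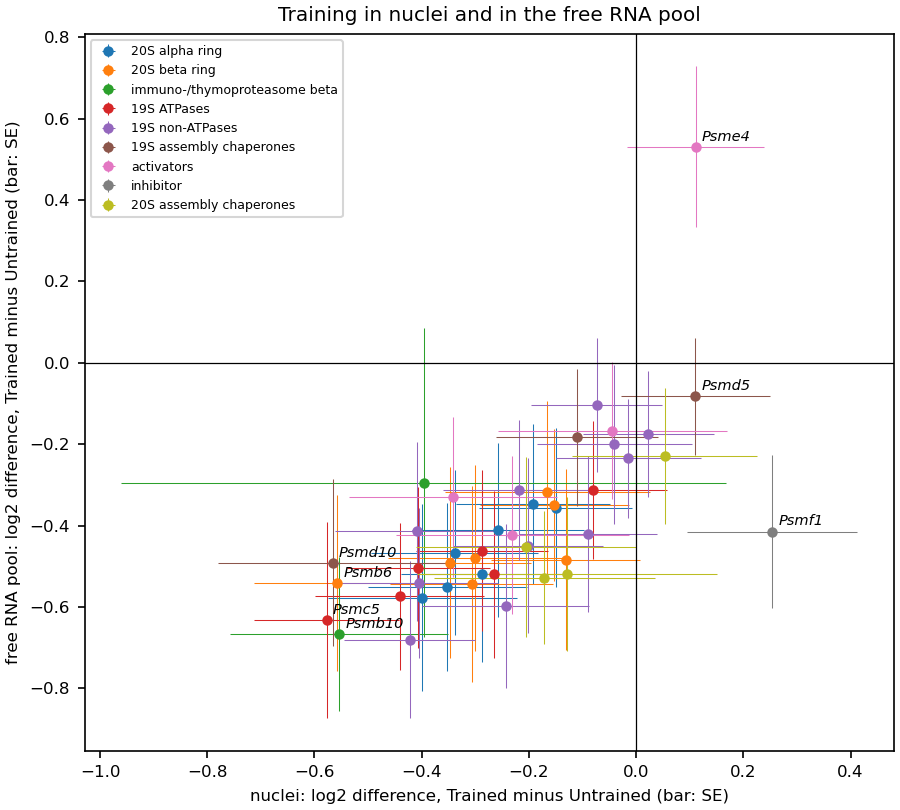
Log2 difference (Trained minus Untrained) of each member in nuclei (x axis) and in the free RNA pool (y axis) with standard errors; colours give the role. Most members fall in the lower left, Psme4 lies above 0 on both axes, and Psmf1 and Psmd5 are among the members above 0 in nuclei alone.

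Whether training moved nuclei and pool by different amounts was tested as an interaction. None of 46 members was called (0% of 17923 genes), 1 had an unadjusted p under 0.05, as did 1504 of all genes, and the member median was 0.17, with 40 of 46 above 0. Without Trained 1 the direction turned, with a median of -0.02 and 22 of 46 above 0, and without Trained 2 it was 0.36. With plain library totals the median was 0.07 over the members and -0.14 over all genes, against -0.05 over all genes in the main scaling. Psmf1 had an interaction of 0.66 (SE 0.21, edgeR adjusted p 0.379) and Psme4 of -0.41 (SE 0.22, edgeR adjusted p 0.703). Without Trained 2 the interaction called 9 members higher and 1 lower, and without any other library it called 0. The ribosomal protein genes, likewise low in nuclei against the pool, leaned with the proteasome genes: their median was -0.37 in nuclei and -0.49 in the pool, below 0 in 79 of 79 genes in each. Partner genes leaned less, with medians of -0.08 in nuclei and -0.23 in the pool and 0 of 22 called in either. Zfand5, Vcp, Pomp and Usp14, the partners with the most UMIs, had -0.18, -0.06, -0.41 and -0.07 in nuclei.

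Nuclei were also sorted into classes by marker genes against the pool. A nucleus entered a class when at least 4 UMIs of at least 2 of its markers exceeded what its library's free RNA would bring. The limit was a Poisson p under 0.001, and no other class was to pass it. Dentate granule markers summed to 671 to 996 CPM in the Trained and 365 to 486 CPM in the Untrained pool. CA3 and astrocyte markers were also higher in both Trained pools, while those of the other classes tested below overlapped. The gate was thus not equally strict in the 2 groups, and its part in the class results was not tested. It named 786 and 2800 nuclei in Trained 1 and 2 and 4164 and 3541 in Untrained 1 and 2. The rest stayed unnamed. Of these named nuclei 376 and 863 in Trained and 1257 and 1031 in Untrained libraries lay near the threshold, with exactly 4 marker UMIs or a Poisson p of at least 0.0001. The 6 classes with at least 30 nuclei in each library were tested, namely 3294 dentate granule-like, 929 CA3 pyramidal-like, 2954 inhibitory neuron-like, 1257 thalamic excitatory-like, 1134 cortical excitatory-like and 904 astrocyte-like nuclei. In none of these 6 did the marker genes of another class appear among the top 10 genes. The gate itself leaves out nuclei that passed for another class, so this is no test of how pure a class is. Training gave 0 called members in each class; all genes called made up 0.0185% in dentate granule-like, 0.0141% in CA3-like, 0.0283% in inhibitory, 0.014% in thalamic, 0% in cortical and 0% in astrocyte-like nuclei. The unadjusted p was under 0.05 for 7 of 41, 1 of 35, 4 of 41, 1 of 34, 0 of 31 and 6 of 30 members in that order. Over all genes it was so for 603 of 10803, 245 of 7085, 573 of 10588, 297 of 7159, 413 of 6451 and 434 of 4798. Member medians of the log2 difference (Trained minus Untrained) were -0.37, -0.02, -0.27, -0.09, -0.13 and -0.49 in the same order. Without Untrained 1 the median turned to 0.09 in thalamic-like and 0.03 in CA3-like nuclei, and was -0.0074 in cortical-like and -0.16 in inhibitory nuclei. With 1 library left out it ranged from -0.16 to 0.09 in thalamic-like, from -0.14 to 0.03 in CA3-like, from -0.26 to -0.0074 in cortical-like, from -0.31 to -0.16 in inhibitory, from -0.62 to -0.28 in astrocyte-like and from -0.48 to -0.29 in granule-like nuclei. With the replicate block the CA3-like median was 0.0034.

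Members were called between classes, and astrocyte-like nuclei had more of these calls than any other single class. The 48 genes summed to 3099.8 and 2645 CPM in Trained and 3793 and 3465 CPM in Untrained astrocyte-like nuclei, while CA3-like nuclei had 2543 and 2184 CPM in Trained and 2353 and 2092 CPM in Untrained libraries. Against the mean of the other 5 classes, with the library as a block, 7 of 40 tested members were higher and 1 was lower in astrocyte-like nuclei. Among all 9264 genes 13.6% were higher and 15% were lower there, so the members' 17.5% higher is near the background. The member median was 0.29, against -0.03 over all genes. In every library but Trained 1 astrocyte-like nuclei were also the shallowest class, with medians of 796 and 770 UMIs in Trained and 724 and 764 UMIs in Untrained libraries. The part of depth in this result was not tested beyond the narrower range of depth below. Ribosomal protein UMIs made up 1.34% and 1.497% in Trained and 2.51% and 1.92% in Untrained astrocyte-like nuclei, against 1.07% and 0.862% in Trained and 1.21% and 0.915% in Untrained CA3-like nuclei. In nuclei under 1000 UMIs alone the 48 genes summed to 2879 and 2926 CPM in Trained and 4209 and 4131 CPM in Untrained astrocyte-like nuclei. The other 5 classes spanned 2383 to 2839 CPM in Trained and 2323 to 3709 CPM in Untrained libraries, and in Trained 1 the nearest, cortical-like nuclei, had 2839 CPM. In that range of depth 2 members were called in astrocyte-like nuclei. Without Untrained 1 the astrocyte calls were 2, and without Untrained 2 they were 4. Scaling to plain library totals gave 18 members higher and 0 lower, and of all genes 2095 higher and 875 lower, against 1263 and 1385 in the main scaling.

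Psme1, the PA28 alpha chain, had 64.6 and 26.5 CPM in astrocyte-like nuclei of Trained 1 and 2 and 39.1 and 28.2 CPM in those of Untrained 1 and 2. Elsewhere Psme1 spanned 6.03 to 66.3 CPM in Trained and 5.81 to 22.7 CPM in Untrained libraries, a log2 difference of 1.10 (SE 0.34, edgeR adjusted p 0.00865) from the mean of those classes. Only 28 UMIs of Psme1 lie behind the astrocyte values, and 2 of them come from Trained 1. Psmd8, of the lid, had 64.6 and 44.2 CPM in astrocyte-like nuclei of Trained 1 and 2 and 73.00 and 52.9 CPM in those of Untrained 1 and 2. From 0 to 31.4 CPM of Psmd8 were seen in the other classes of Trained and from 22.2 to 41.2 CPM in those of Untrained libraries, and the log2 difference was 0.89 (SE 0.24, edgeR adjusted p 0.00218). Psma7, of the alpha ring, had 226 and 168 CPM in astrocyte-like nuclei of Trained 1 and 2 and 253 and 271 CPM in those of Untrained 1 and 2. Other classes held Psma7 at 66.4 to 166 CPM in Trained and 81.3 to 189 CPM in Untrained libraries, and the log2 difference from their mean was 0.79 (SE 0.14, edgeR adjusted p 5.37e-07). Within each library, astrocyte-like nuclei held the highest Psma7 of the 6 classes. Psmb6, with the caspase-like site, had 32.3 and 70.8 CPM in astrocyte-like nuclei of Trained 1 and 2 and 151 and 148 CPM in those of Untrained 1 and 2. Elsewhere Psmb6 spanned 27.1 to 99.4 CPM in Trained and 44.5 to 100.2 CPM in Untrained libraries, a log2 difference of 0.73 (SE 0.17, edgeR adjusted p 0.000235) from the mean of those classes. In Trained 1 that value rests on 1 UMI. Psmc1, an ATPase, had 96.9 and 106 CPM in astrocyte-like nuclei of Trained 1 and 2 and 104 and 84.6 CPM in those of Untrained 1 and 2. From 47.1 to 133 CPM of Psmc1 were seen in the other classes of Trained and from 46.3 to 71.4 CPM in those of Untrained libraries, and the log2 difference was 0.56 (SE 0.19, edgeR adjusted p 0.014). Psma4, of the alpha ring, had 64.6 and 133 CPM in astrocyte-like nuclei of Trained 1 and 2 and 125 and 91.7 CPM in those of Untrained 1 and 2. Other classes held Psma4 at 53.6 to 99.4 CPM in Trained and 46.5 to 88.3 CPM in Untrained libraries, and the log2 difference from their mean was 0.50 (SE 0.18, edgeR adjusted p 0.0237). Psmc3, an ATPase, had 64.6 and 106 CPM in astrocyte-like nuclei of Trained 1 and 2 and 169 and 134 CPM in those of Untrained 1 and 2. Elsewhere Psmc3 spanned 33.1 to 94.2 CPM in Trained and 62.6 to 114 CPM in Untrained libraries, a log2 difference of 0.46 (SE 0.16, edgeR adjusted p 0.0183) from the mean of those classes. Trained 1 had 37 astrocyte-like nuclei with 30970 UMIs in all. Psmd8, Psma4 and Psmc3 had the same 64.6 CPM there as Psme1, so each of these values rests on 2 UMIs. Cortical-like nuclei of Trained 1 numbered 35 with 30182 UMIs, so their values of single genes also rest on few UMIs. Psme4, the nuclear activator, had 194 and 212 CPM in astrocyte-like nuclei of Trained 1 and 2 and 151 and 159 CPM in those of Untrained 1 and 2. From 159.5 to 283 CPM of Psme4 were seen in the other classes of Trained and from 141 to 274 CPM in those of Untrained libraries, and the log2 difference was -0.41 (SE 0.14, edgeR adjusted p 0.0203). Psme4 was the 1 member lower in astrocyte-like nuclei, and it is the 1 member higher in nuclei than in the pool. That call was lost with DESeq2 size factors (edgeR adjusted p 0.102), with plain totals (0.308), without Untrained 1 (0.186), without Untrained 2 (0.17) and in nuclei under 1000 UMIs (0.799).

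**Figure D5:**
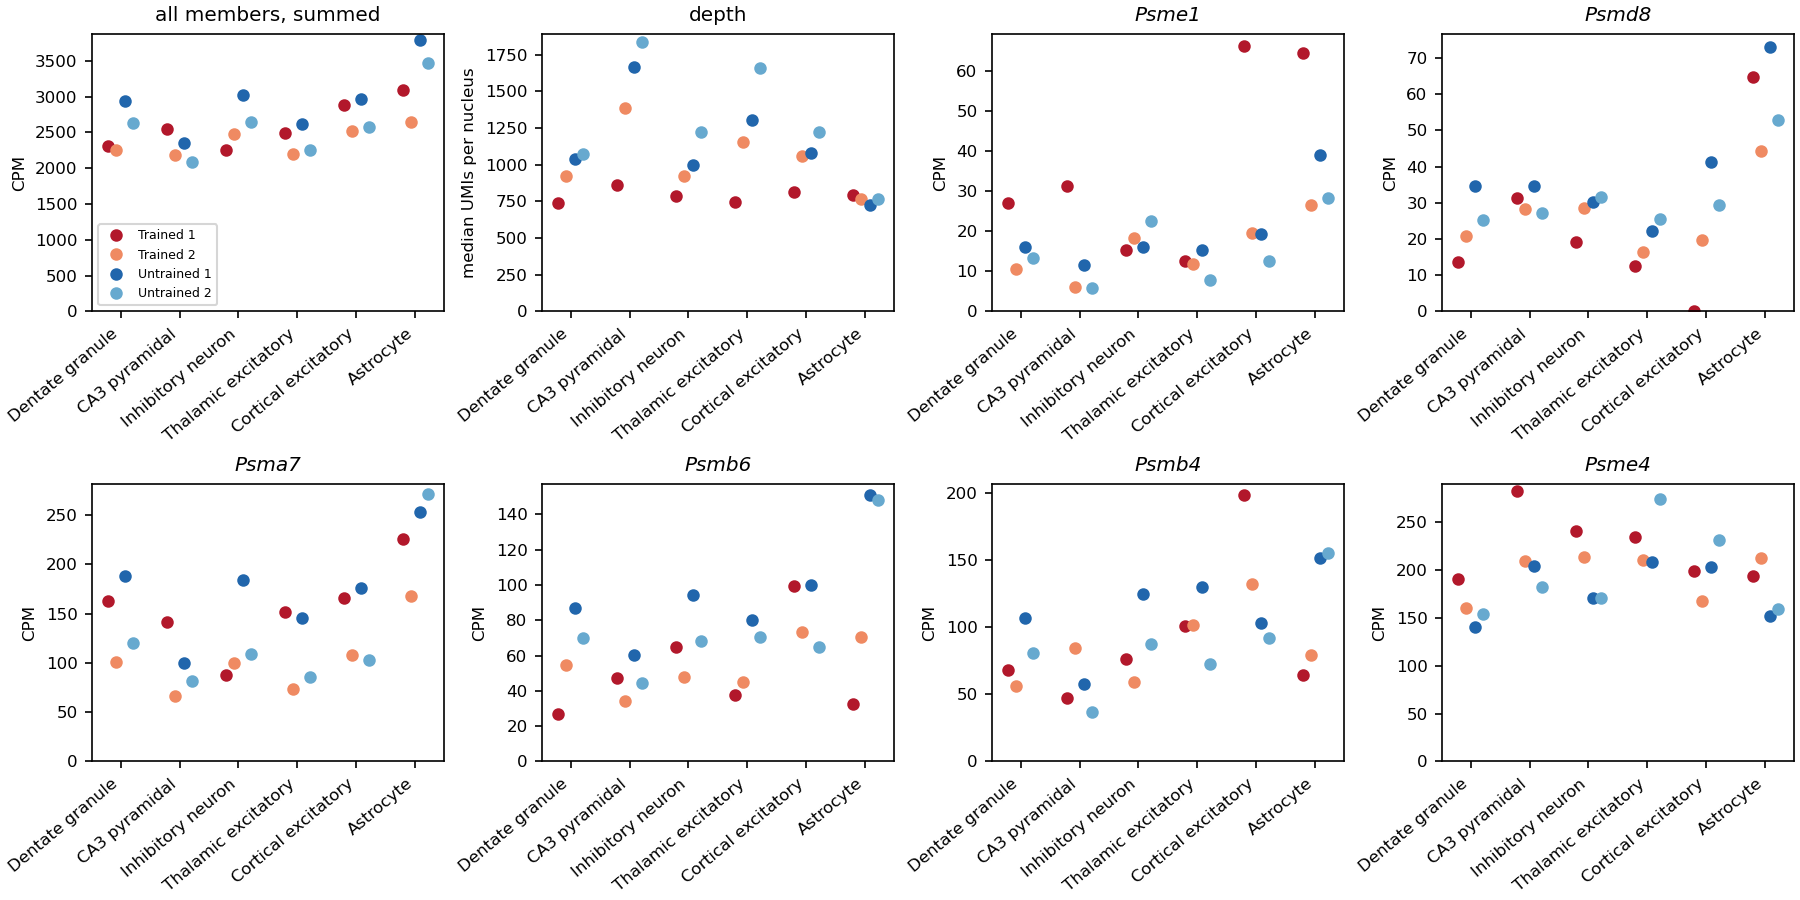
CPM of all members together, median depth in UMIs per nucleus, and CPM of 6 called members, in the 6 tested classes; 1 point per library, Trained left of Untrained. Astrocyte-like nuclei are high for Psma7 and Psmd8 and shallow, and CA3-like nuclei are deep.

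In CA3 pyramidal-like nuclei, which were the deepest, 4 of 40 members (10%) were lower and 0 were higher, against 11% and 14% of all genes, so the share lower is near the background. Their medians were 859 and 1389.5 UMIs in Trained and 1668 and 1837.5 UMIs in Untrained libraries. Psmb6 had 47.1 and 34.2 CPM in CA3-like nuclei of Trained 1 and 2 and 60.2 and 44.5 CPM in those of Untrained 1 and 2. Other classes held Psmb6 at 27.1 to 99.4 CPM in Trained and 64.97 to 151 CPM in Untrained libraries, and the log2 difference from their mean was -0.61 (SE 0.18, edgeR adjusted p 0.00648). Psmb4, a structural beta subunit, had 47.1 and 84.5 CPM in CA3-like nuclei of Trained 1 and 2 and 57.9 and 36.8 CPM in those of Untrained 1 and 2. Elsewhere Psmb4 spanned 55.9 to 199 CPM in Trained and 72.4 to 155 CPM in Untrained libraries, a log2 difference of -0.60 (SE 0.18, edgeR adjusted p 0.00552) from the mean of those classes. Psma7 had 141 and 66.4 CPM in CA3-like nuclei of Trained 1 and 2 and 99.5 and 81.3 CPM in those of Untrained 1 and 2. From 73.1 to 226 CPM of Psma7 were seen in the other classes of Trained and from 86.1 to 271 CPM in those of Untrained libraries, and the log2 difference was -0.56 (SE 0.15, edgeR adjusted p 0.00128). Psma5, of the alpha ring, had 62.8 and 24.1 CPM in CA3-like nuclei of Trained 1 and 2 and 32.4 and 46.5 CPM in those of Untrained 1 and 2. Other classes held Psma5 at 33.1 to 96.9 CPM in Trained and 44.4 to 89.1 CPM in Untrained libraries, and the log2 difference from their mean was -0.54 (SE 0.21, edgeR adjusted p 0.0453). In Trained libraries the CA3-like values of these 4 genes overlapped those of single other classes. In Untrained libraries those of Psma7 and Psma5 overlapped too, while those of Psmb6 and Psmb4 lay below the other classes. The call concerns the mean. Without Untrained 1 the calls were 1, and without Untrained 2 they were 2. The stricter gate gave 1 member higher and 5 lower. With plain library totals 9 members were lower and 0 higher, while 1769 of all genes were lower and 976 higher.

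Thalamic excitatory-like nuclei were higher in 1 of 40 members (2.5%) and lower in 2 (5%), against 18.4% and 13.9% of all genes. Without Untrained 2 the calls were 1, without Trained 1 they were 5, and in nuclei under 1000 UMIs they were 0. With plain library totals 1 member was higher and 10 were lower, while 1290 of all genes were higher and 1947 lower. Psme4 had 234 and 209.8 CPM in thalamic-like nuclei of Trained 1 and 2 and 208 and 274 CPM in those of Untrained 1 and 2. Elsewhere Psme4 spanned 159.5 to 283 CPM in Trained and 141 to 231 CPM in Untrained libraries, a log2 difference of 0.45 (SE 0.11, edgeR adjusted p 0.000214) from the mean of those classes. Psmc2, an ATPase, had 18.95 and 33.01 CPM in thalamic-like nuclei of Trained 1 and 2 and 37.6 and 25.4 CPM in those of Untrained 1 and 2. From 17.7 to 99.4 CPM of Psmc2 were seen in the other classes of Trained and from 32.4 to 86.03 CPM in those of Untrained libraries, and the log2 difference was -0.63 (SE 0.21, edgeR adjusted p 0.0148). Psmb5, with the chymotrypsin-like site, had 69.5 and 49.5 CPM in thalamic-like nuclei of Trained 1 and 2 and 63.2 and 74.4 CPM in those of Untrained 1 and 2. Other classes held Psmb5 at 0 to 129 CPM in Trained and 67.8 to 154 CPM in Untrained libraries, and the log2 difference from their mean was -0.44 (SE 0.16, edgeR adjusted p 0.021). Dentate granule-like nuclei were likewise higher in 1 of 40 and lower in 2, against 13.7% and 14.2% of all genes. The calls were 1 without Untrained 2 and 1 in nuclei under 1000 UMIs. Psmd6, of the lid, had 54.3 and 55.9 CPM in granule-like nuclei of Trained 1 and 2 and 51.6 and 47.3 CPM in those of Untrained 1 and 2. Elsewhere Psmd6 spanned 15.7 to 96.9 CPM in Trained and 21.5 to 62.6 CPM in Untrained libraries, a log2 difference of 0.41 (SE 0.15, edgeR adjusted p 0.0269) from the mean of those classes. Psme4 had 190.0 and 159.5 CPM in granule-like nuclei of Trained 1 and 2 and 141 and 154 CPM in those of Untrained 1 and 2. From 167 to 283 CPM of Psme4 were seen in the other classes of Trained and from 151 to 274 CPM in those of Untrained libraries, and the log2 difference was -0.40 (SE 0.10, edgeR adjusted p 0.000453). Psmd1, a scaffold of the base, had 94.99 and 72.2 CPM in granule-like nuclei of Trained 1 and 2 and 106 and 92.7 CPM in those of Untrained 1 and 2. Other classes held Psmd1 at 66.3 to 129 CPM in Trained and 83.3 to 146 CPM in Untrained libraries, and the log2 difference from their mean was -0.33 (SE 0.11, edgeR adjusted p 0.0122). In inhibitory neuron-like and cortical excitatory-like nuclei 0 of 40 members were called in edgeR, where 0 and 4 had an unadjusted p under 0.05, and 20.5% and 11.3% of all genes were called. Psme4 was the member called in the most classes, lower in dentate granule-like and astrocyte-like and higher in thalamic-like nuclei.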

How the data were processed

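The authors deposited raw UMI counts for each barcode and gene, made with Cell Ranger 7.0.0 per the file headers. The submitters' processing notes name Cell Ranger 8, STAR and GRCm39, which differs in version. Members, roles and lists were chosen with earlier results of these data known. Counts were summed per library over nuclei (at least 600 UMIs), the pool (under 400 UMIs) and marker classes, and scaled to CPM for display. Doublets were not called, but nuclei that passed for several classes were left out. Libraries shared 748 to 1596 barcodes in pairs, of which 17 to 65 were nuclei in both. Tests used edgeR 4.0.16 in R 4.3.3 (filterByExpr, TMM, quasi-likelihood F test, Benjamini-Hochberg over all genes tested, threshold 0.05), and DESeq2 1.42.0 as an alternative. The SE of a log2 difference is its absolute value over the square root of F. The fits were tested on simulated data with a chosen spread, which may differ from that of the real counts. Of 100 genes changed 2-fold, 45 were recovered in nuclei and 61 in the pool. Within classes 11 (CA3-like) to 35 (inhibitory) of 100 were recovered, so 0 calls for training do not exclude changes of that size. Text values were given for every member called in any comparison, for the 2 members of each role with the most UMIs and for all inducible beta genes. Gene spans come from GENCODE vM21, joined by gene ID (99.6% of features and all 48 members matched), and promoters from RefSeq. Total UMIs ran from 23155826 to 39749125 per library, and with 2 libraries per group precision rests on the spread between libraries.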

Additional observations from a re-analysis of the deposited data

Results flagged for a closer look

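Barcodes of at least 400 and under 600 UMIs entered neither the nuclei nor the pool, and are listed as data outside the comparisons. They held the 48 proteasome genes at 3101 and 3519 CPM in Trained 1 and 2 and at 5799 and 5159 CPM in Untrained 1 and 2, between the nuclear and the pool value of each library.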

How the results depend on the processing

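The count of 42 members called between nuclei and pool lay between 41 and 43 in each alternative, namely DESeq2 size factors, plain library totals, no filter, no library block, nuclei of at least 1000 UMIs, a pool under 300 UMIs and each library left out. Log2 differences near 0 changed sign: Psmd14 ranged from -0.019 to 0.10 and Psmf1 from -0.03 to 0.29 with 1 library left out, below 0 for Psmd14 without Trained 1 and for Psmf1 without Trained 1 or Trained 2, and Psmf1 was at -0.00648 with nuclei of at least 1000 UMIs. For training, the 0 called members in nuclei became 2 with no filter, and 0 to 1 with 1 library left out. In the pool 0 became 3 with no filter, 1 with DESeq2 and 0 to 35 with 1 library left out. The interaction gave 0 to 10. A library left alone in its group was assumed to vary like the others. No label says that replicate numbers pair the mice. The correlation of replicate deviations between the groups was -0.026 over 17474 genes, which with 2 libraries per group can neither show nor exclude a pairing. With the replicate block 0 members were called in nuclei and 1 in the pool, where 843 of all genes were called, against 0 without it. All genes called for training in nuclei numbered 159 with no filter, 189 without Untrained 2 and 0 to 4 in the other alternatives. In the pool they numbered 1363 with no filter, 270 with DESeq2 and 86 to 4974 with 1 library left out, and in the interaction 603 with no filter, 14 with a pool under 300 UMIs and 8 to 3059 with 1 library left out. Plain totals moved the pool's median over all genes to 0.11 and the members' to -0.35. Between classes, each set against the mean of the classes left in that alternative, astrocyte-like calls (8) became 18 with plain totals, 5 with no filter, 2 in nuclei under 1000 UMIs, and 2 to 12 with 1 library left out. CA3-like calls (4) became 9 with plain totals, 6 with the stricter gate and 1 to 4 with 1 library left out. Thalamic-like calls (3) became 6 with DESeq2 size factors, 11 with plain totals, 0 in nuclei under 1000 UMIs, and 1 to 5. Granule-like calls (3) became 1 in nuclei under 1000 UMIs and 1 to 4, and inhibitory calls (0) became 2 at 1000 UMIs or more. The causes were not tested. Plain totals and the limit to nuclei under 1000 UMIs were chosen after seeing the data. A minimum of 1000 UMIs left enough nuclei only for inhibitory and thalamic-like classes, the stricter gate not for cortical-like nuclei, and nuclei under 1000 UMIs not for CA3-like and cortical-like nuclei. Training called 0 members in every class under every alternative run. Depth limits Psma8, Psmb11, Psmb8 and Psmb9 most.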
